A study of Mus musculus with 4 samples.

Results

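Genes tied to human myxomatous mitral valve disease were followed in cardiac cushions of mouse embryos, 7 in all: Flna, Dchs1, Fat4, Dzip1, Tns1, Lmcd1 and Glis1. They were chosen by symbol, from what is known of the human disease, though with earlier results of these data known. All 7 have a row among the 23337 gene rows of the deposited count table. Cushions of the outflow tract and atrioventricular canal were dissected at embryonic day 14.5 from 2 groups on a C57BL/6 background. The mutant group (2 libraries) was Nfatc1Cre;Brg1F/F, with Cre-driven loss of Brg1, also named Smarca4, in the endocardium; BRG1 is the motor subunit of SWI/SNF complexes, which move nucleosomes. The other group (2 libraries) came from wildtype littermates, for which the labels name no Cre or floxed allele. In all 4 samples GFP from a reporter of Cre activity guided the dissection, and the series describes them as 2 pairs. Whether a library held 1 embryo or several is not given in the sources used here, so the p-values speak only of how far these libraries differ from each other, and that spread may be technical.

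In myxomatous disease the mitral leaflets thicken and lose their layered matrix, so that they billow into the atrium. Leaflets grow from the endocardial cushions: endocardial cells turn into mesenchyme, invade the matrix, and later line up and compact it. The 7 genes act at different points of that work. Flna encodes filamin A, which crosslinks actin and ties it to integrins, and carries mutations in X-linked valvular dystrophy. Dchs1 encodes the large cadherin Dachsous 1 and Dzip1 a protein of the base of the primary cilium, and both carry mutations in families with mitral valve prolapse. Fat4 encodes the cadherin that binds Dachsous 1 on the neighbouring cell, a pair that sets planar cell polarity, and it is here as that partner. Tns1 (tensin 1, a focal adhesion protein), Lmcd1 (a LIM protein that restrains GATA6) and Glis1 (a Krüppel-like zinc finger factor) come from association studies of mitral valve prolapse.

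Gene reads per library numbered 22426537 and 14104458 in mutant replicates 1 and 2, and 19218820 and 15790338 in wildtype replicates 1 and 2. Smarca4 measured 282 and 239 CPM, which are reads scaled to library size, in the mutant libraries and 251 and 231 CPM in the wildtype libraries, so its counts, summed over the whole gene, did not separate the labelled genotypes. All 12 mesenchyme markers and all 10 endocardial markers examined had reads. Cardiomyocyte RNA was abundant as well: 10 markers summed to 53830 and 58600 CPM in the mutant and to 67280 and 61250 CPM in the wildtype libraries. Xist measured 2659 and 13.3 CPM in mutant replicates 1 and 2, and 2047 and 2317 CPM in wildtype replicates 1 and 2, and Y-linked Ddx3y had 0 and 3384 reads in the mutant and 0 and 28 in the wildtype libraries, so that pair 2 differs in sex as well as genotype. In such bulk samples fewer cells of a type and less RNA per cell cannot be told apart.

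None of the 7 genes passed the test between genotypes. Of the 6 with enough reads to be tested, 0 had an adjusted p under 0.05 by edgeR's quasi-likelihood test, where 0.0629% of the 14316 genes tested did. With the replicate number as a block, 0 of the 6 passed beside 0.887% of all genes, 127 in place of 9. By DESeq2 0 of the 6 passed beside 0.394% of genes, by limma-voom 0 beside 0.0489%. The authors' deposited table has entries for the same 6 and calls none of them, beside 0.374% of its entries. At an unadjusted p under 0.05, edgeR found 0 of the 6, against 5.78% of all genes. In 0 of the 6 did the groups separate, whereas both mutant libraries lay above both wildtype libraries for 17.0% of tested genes and below them for 16.3%. The 6 had a median log2 fold change of 0.17, mutant over wildtype, beside -0.0027 over all genes tested. The pairs of equal replicate number differed in this. In pair 1 the median log2 ratio of CPM + 1 was 0.23, with 5 of the 6 above 0. In pair 2 it was -0.080, with 1 of the 6 above 0. Of all tested genes 49.7% were above 0 in pair 1 and 50.5% in pair 2.

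**Figure D1:**
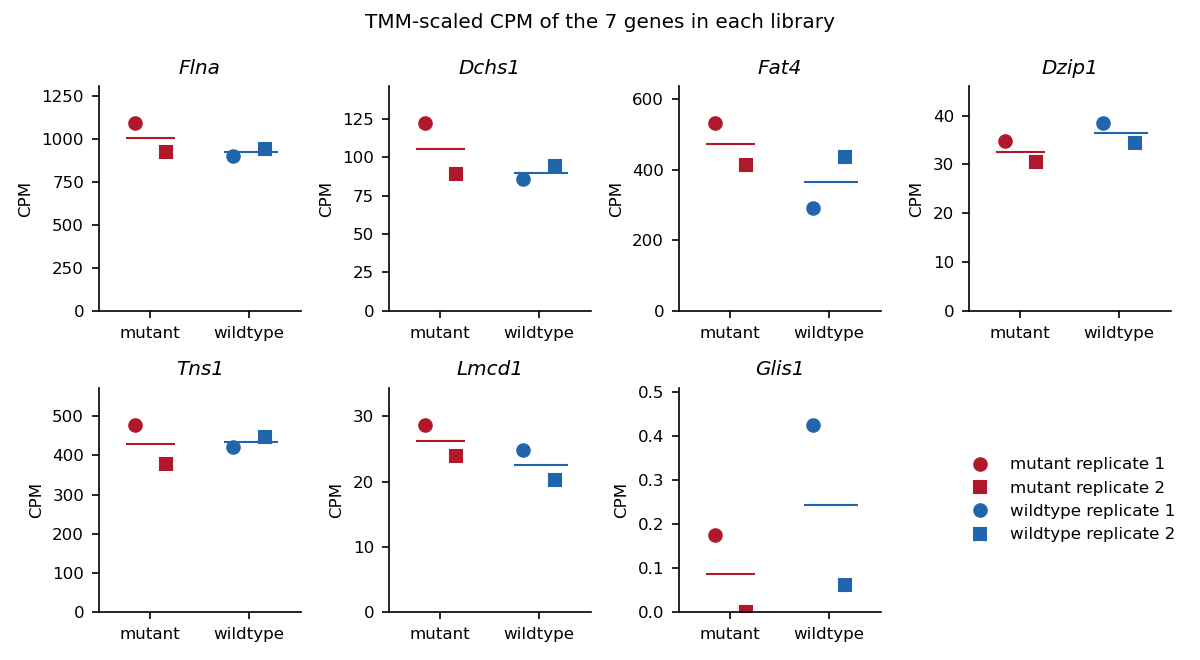
TMM-scaled CPM of each of the 7 genes (vertical axis, from 0, a scale of its own per panel) in the mutant libraries at left and the wildtype libraries at right; circles are replicate 1, squares replicate 2 and lines group means. Flna, Dchs1, Fat4, Tns1 and Lmcd1 have their highest point in mutant replicate 1, and the groups overlap in every panel. Of all tested genes 29.6% were highest in mutant replicate 1.

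Levels per kilobase of exon, as RPKM (CPM divided by kilobases), set the genes in an order. Flna stood first at 116 and 97.9 RPKM in the mutant libraries and 95.97 and 99.98 RPKM in the wildtype libraries. Fat4 ranged from 24.0 to 30.9 RPKM in the mutant and from 17.0 to 25.4 RPKM in the wildtype libraries, and Tns1 from 23.7 to 29.8 RPKM in the mutant and from 26.3 to 27.9 RPKM in the wildtype libraries. These 2 genes overlap over the 4 libraries and have no order between them. Lmcd1 followed at 13.8 to 16.6 RPKM in the mutant and 11.7 to 14.4 RPKM in the wildtype libraries, then Dchs1 at 8.07 to 11.0 RPKM in the mutant and 7.74 to 8.53 RPKM in the wildtype libraries. Dzip1 was near 3 RPKM throughout, with 2.90 to 3.29 RPKM in the mutant and 3.27 to 3.64 RPKM in the wildtype libraries. Apart from Fat4 and Tns1, no neighbours in this order overlapped. Exon length here is the union over all annotated transcripts, which understates the level of a gene whose used transcript is shorter.

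The promoters of 3 members show how unlike the start regions of these genes are: that of the most abundant member, that of the member with the widest spread between libraries, and that of the member with almost no reads. Each window runs from 250 bases before to 50 bases after the annotated start, 5′ to 3′ on the gene's strand. The source was RefSeq on GRCm38.p6, which held windows for 6 of the 7 genes. Whether transcription begins at these starts in this tissue was not tested. The windows lie at chrX:74246485-74246784 (minus strand) for Flna, chr3:38886690-38886989 (plus strand) for Fat4 and chr4:107434469-107434768 (plus strand) for Glis1. Capitals mark 3 motifs, each searched for on both strands. The first is the GC box, spelled GGGCGG, which Sp1-like factors can bind. The second is the CCAAT box, spelled as its name. The third is the core of the motif of TEAD factors, the partners of YAP, spelled GGAATG.
Flna: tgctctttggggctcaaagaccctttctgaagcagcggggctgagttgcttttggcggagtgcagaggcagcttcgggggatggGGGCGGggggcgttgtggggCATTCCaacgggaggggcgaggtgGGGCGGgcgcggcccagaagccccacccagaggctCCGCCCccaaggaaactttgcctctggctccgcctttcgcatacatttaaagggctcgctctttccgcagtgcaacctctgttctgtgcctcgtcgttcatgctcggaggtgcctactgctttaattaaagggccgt
Fat4: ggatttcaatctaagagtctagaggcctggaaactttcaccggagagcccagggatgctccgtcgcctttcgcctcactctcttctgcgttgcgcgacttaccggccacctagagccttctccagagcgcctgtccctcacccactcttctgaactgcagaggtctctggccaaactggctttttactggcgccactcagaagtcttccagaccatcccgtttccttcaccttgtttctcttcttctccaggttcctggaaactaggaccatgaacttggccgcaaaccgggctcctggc
Glis1: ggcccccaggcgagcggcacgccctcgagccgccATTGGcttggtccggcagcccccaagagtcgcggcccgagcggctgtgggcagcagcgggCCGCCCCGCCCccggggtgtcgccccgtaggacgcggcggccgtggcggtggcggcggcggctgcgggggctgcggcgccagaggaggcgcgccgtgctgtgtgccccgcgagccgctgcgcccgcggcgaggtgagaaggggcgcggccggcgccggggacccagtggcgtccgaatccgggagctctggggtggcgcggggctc
The Flna window held 3 GC boxes and 1 TEAD core, at 62.0% G and C. The Fat4 window held 0 matches to any of them, at 55.7% G and C. The Glis1 window held 2 GC boxes that share bases and 1 CCAAT box, at 81.3% G and C, more than in 99.3% of windows. Of all 32851 windows of this length, 35.7% held a GC box, 37.4% a CCAAT box and 14.7% a TEAD core. A TATA box (TATAAA) was in 13.6% of all windows and in 0 of the windows of the members. A match is a description of letters and not a bound site.

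Filamin A was measured most deeply. Flna (chromosome X, 74223461 to 74249820, minus strand) had 24723 and 13034 reads in mutant replicates 1 and 2, and 16941 and 14892 in wildtype replicates 1 and 2, or 1088 and 920 CPM in the mutant and 902 and 940 CPM in the wildtype libraries. Mutant replicate 1 stood above the other libraries, and mutant replicate 2 lay between the wildtype libraries. Flna had a log2 fold change of 0.13 ± 0.15 (SE), with an edgeR adjusted p of 0.979 and a 95% interval on the fold from 0.869 to 1.37. In pair 1, whose libraries were both female by Xist, the log2 ratio of CPM + 1 was 0.27, and in pair 2 it was -0.030. Flna is X-linked, and a part of sex in the value of pair 2 was not tested.

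Flnc, the filamin of striated muscle, was lower than Flna per kilobase in every library, at 42.9 and 42.8 RPKM in the mutant and 42.8 and 41.7 RPKM in the wildtype libraries. Among 13 tested genes of the filamin family and its partners 0 passed, and the median log2 fold change was 0.05. The most abundant were Vim, the mesenchymal intermediate filament, at 0.28 ± 0.14 (SE), and Itgb1, the integrin β1 subunit, at 0.02 ± 0.15 (SE) on the log2 fold change scale.

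**Figure D2:**
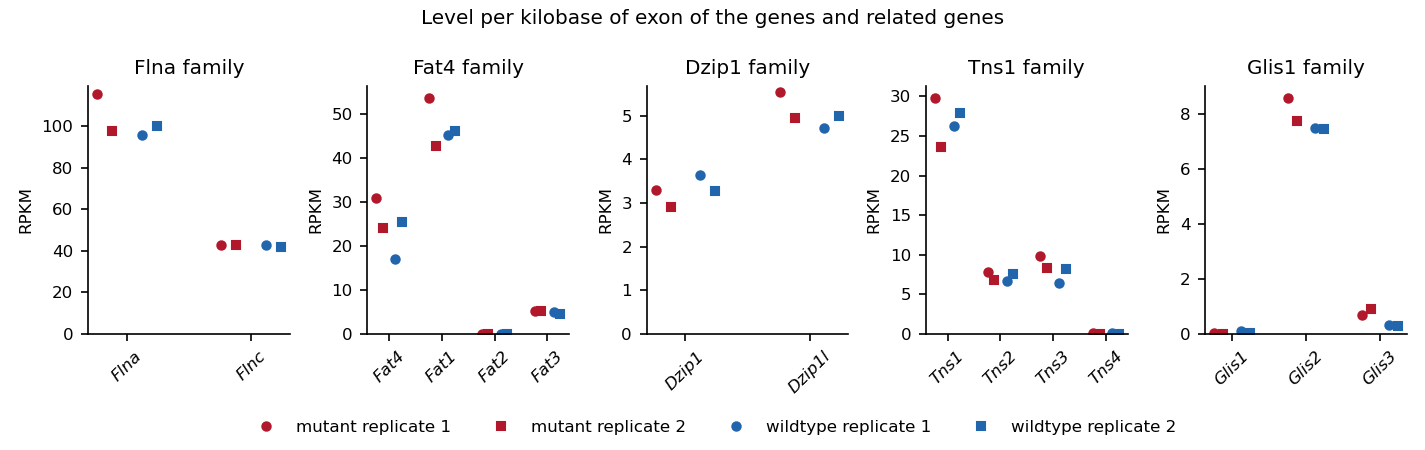
Level in RPKM (vertical axis, from 0) of Flna, Fat4, Dzip1, Tns1 and Glis1 beside related genes, with a point per library, mutant libraries in red to the left of wildtype libraries in blue. Flna lies above Flnc and Tns1 above the other tensins shown, Fat1 lies above Fat4 and Dzip1l above Dzip1, and Glis1 lies near 0 beside Glis2.

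The Dachsous and Fat pair showed the widest differences between libraries. Fat4 (chromosome 3, 38886940 to 39011985, plus strand) had 12061 and 5840 reads in mutant replicates 1 and 2, and 5467 and 6917 in wildtype replicates 1 and 2, which is 531 and 412 CPM in the mutant and 291 and 437 CPM in the wildtype libraries. Wildtype replicate 1 was the low library and mutant replicate 1 the high one, 1.82 times apart, while mutant replicate 2 lay below wildtype replicate 2. The wildtype libraries themselves differed by 1.5 times and the mutant libraries by 1.29 times. Fat4 averaged 472 ± 83.7 CPM in the mutant and 364 ± 103 CPM in the wildtype libraries (SD, n = 2 each). The log2 fold change was 0.37 ± 0.20 (SE), the largest of the 6, with an edgeR adjusted p of 0.935 and a 95% interval on the fold from 0.944 to 1.78. Within pairs the log2 ratio was 0.86 in pair 1, above 98.4% of tested genes, and -0.082 in pair 2, above 34.2% of them.

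Dchs1 (chromosome 7, 105752990 to 105787654, minus strand) had 2771 and 1263 reads in mutant replicates 1 and 2, and 1607 and 1494 in wildtype replicates 1 and 2, or 122 and 89.2 CPM in the mutant and 85.6 and 94.3 CPM in the wildtype libraries. Here too mutant replicate 1 was the highest library, and the other mutant library lay between the wildtype libraries. Between genotypes the log2 fold change of Dchs1 was 0.23 ± 0.16 (SE), with an edgeR adjusted p of 0.961 and a 95% interval on the fold from 0.908 to 1.52. Its log2 ratio was 0.51 in pair 1 and -0.079 in pair 2. Gm15645, a pseudogene whose exons overlap those of Dchs1 on the other strand, had 13.8 and 8.62 CPM in the mutant and 9.16 and 11.5 CPM in the wildtype libraries. The strand setting of the counting is not given in the sources used here, so how reads from the shared stretch were counted is not known. Antisense transcripts overlap exons of Fat4 and Dzip1 as well. Fat4 stood above Dchs1 per kilobase by 2.80 and 2.98 times in mutant replicates 1 and 2, and by 2.19 and 2.98 times in wildtype replicates 1 and 2, so that wildtype replicate 1 was the library with the lowest ratio.

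The Fat4 value rested on single libraries. Without mutant replicate 2 it stood at 0.55 ± 0.16 (SE) on the log2 fold change scale. That fit assumes the lone mutant library to vary like the wildtype libraries. Without wildtype replicate 1 the Fat4 value was 0.12, without mutant replicate 1 it was 0.18 and without wildtype replicate 2 it was 0.69. Fat4 passed in no alternative setting that kept all 4 libraries, where its lowest adjusted p, by edgeR with no filter, was 0.351. Dchs1 was at -0.013 without mutant replicate 1 and at 0.45 without mutant replicate 2.

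**Figure D3:**
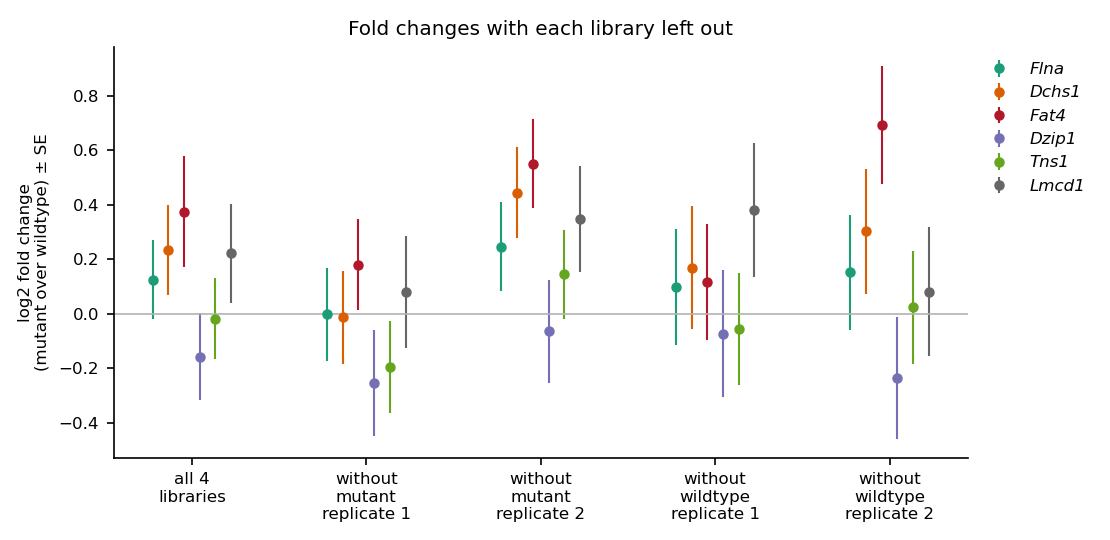
Log2 fold change, mutant over wildtype, with its standard error (vertical axis) for the 6 tested genes, fitted on all 4 libraries and with each library left out in turn. Fat4 ranges from 0.12 to 0.69, Flna and Dchs1 lie near 0 without mutant replicate 1, and Dzip1 is below 0 in every fit shown.

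Summed markers of cell types differed between libraries too, and the pair ratios of genes with long transcripts differed between pairs. Summed cardiomyocyte markers were lowest in mutant replicate 1, where Fat4 was highest, and highest in wildtype replicate 1, where Fat4 was lowest, with the sums given above. Ttn and Myh7 made up most of these sums. Of the 10 cardiomyocyte markers, 2 were above 0 in pair 1, with a median log2 ratio of -0.28. In pair 2 there were 4 above 0, with a median of -0.026. Actn2 was itself highest in mutant replicate 1, at 1243 CPM. Summed mesenchyme markers were 7958 and 6976 CPM in the mutant and 7452 and 7549 CPM in the wildtype libraries, with mutant replicate 1 the highest. Gene by gene, 8 of the 12 were above 0 in pair 1, with a median log2 ratio of 0.079, and 0 of the 12 in pair 2, with a median of -0.38. The 10 leukocyte markers summed to 206 and 236 CPM in the mutant and 144 and 140 CPM in the wildtype libraries. Of these markers 1, Ptprc, passed without the replicate block, 4 with it and 2 by DESeq2. At an unadjusted p under 0.05 by edgeR 8 were higher, where 3.88% of all genes tested were. The 10 endocardial markers summed to 1265 and 1290 CPM in the mutant and 1338 and 1361 CPM in the wildtype libraries. Without the block 0 endocardial and 0 cardiomyocyte markers passed. With it 1 of each was lower, Npr3 at a log2 fold change of -0.88 and Nppa at -1.07. By DESeq2 1 of each passed. The 8 erythroid markers summed to 849 and 651 CPM in the mutant and 586 and 596 CPM in the wildtype libraries. Their sum and Fat4 were both highest in mutant replicate 1. In pair 2 the sum was higher in the mutant library, whereas Fat4 was lower. Of these markers 0 passed without the block, 1, Slc4a1, with it, and 1 by DESeq2. The part of these differences in the values of Fat4 and Dchs1 was not tested. Both transcripts are long, with exon unions of 17.2 kb and 11.1 kb, and the 1908 tested genes with over 9 kb of exon had a median log2 ratio of 0.091 in pair 1 and -0.048 in pair 2. With a trend over exon length removed, an alternative chosen after seeing the data, Fat4 was at 0.36 and Dchs1 at 0.21.

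Other genes of planar polarity did not pass either. Among 21 tested genes of the Fat, Dachsous and planar polarity list 0 passed, with a median log2 fold change of 0.12. Fat1, a further Fat cadherin and its most abundant member, was at 0.08 ± 0.15 (SE) on the log2 fold change scale and measured 53.7 and 42.6 RPKM in the mutant and 45.2 and 46.2 RPKM in the wildtype libraries, above Fat4 in all 4. Fzd3, a Frizzled receptor of the polarity pathway, was at -0.20 ± 0.13 (SE). In the Hippo cascade, the growth control pathway linked to Fat cadherins, 0 of 22 tested genes passed and the median was 0.04. Ankrd1, a target of its effector YAP, was at 0.24 ± 0.18 (SE) and Tead1, the DNA-binding partner of YAP, at 0.05 ± 0.14 (SE), again as log2 fold changes.

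Dzip1 was the tested member with both pairs below 0. Dzip1 (chromosome 14, 118875520 to 118925460, minus strand) had 789 and 433 reads in mutant replicates 1 and 2, and 721 and 546 in wildtype replicates 1 and 2, or 34.7 and 30.6 CPM in the mutant and 38.4 and 34.5 CPM in the wildtype libraries. Mutant replicate 1 lay just above wildtype replicate 2, so the groups overlapped. Dzip1 had a log2 fold change of -0.16 ± 0.16 (SE), with an edgeR adjusted p of 0.979 and a 95% interval on the fold from 0.699 to 1.15. The log2 ratio was -0.14 in pair 1 and -0.17 in pair 2. Its paralogue Dzip1l, also a ciliary protein, was higher per kilobase at 5.55 and 4.94 RPKM in the mutant and 4.72 and 4.99 RPKM in the wildtype libraries.

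Of the primary cilium list, 0 of 28 tested genes passed and the median log2 fold change was -0.01. Pkd2, a ciliary cation channel, was at 0.07 ± 0.12 (SE), and Pkd1, its large receptor-like partner, at 0.27 ± 0.15 (SE). Hedgehog signalling, which vertebrate cells run through the cilium, had 0 of 15 tested genes past the threshold, a median of 0.16, and Shh at 0 reads in all libraries. Its most abundant members were the co-receptor Cdon at 0.03 ± 0.17 (SE) and the transcription factor Gli3 at 0.25 ± 0.15 (SE) on the log2 fold change scale. Within pairs, 14 of the 15 Hedgehog genes were above 0 in pair 1 and 7 of them in pair 2, beside 49.7% and 50.5% of all tested genes. Over all 154 tested genes of the pathway lists, 76.0% were above 0 in pair 1 and 43.5% in pair 2.

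Among the genes from association studies, Tns1 (chromosome 1, 73910231 to 74124449, minus strand) had 10848 and 5365 reads in mutant replicates 1 and 2, and 7897 and 7072 in wildtype replicates 1 and 2, or 477 and 379 CPM in the mutant and 421 and 446 CPM in the wildtype libraries. The mutant libraries were the highest and the lowest of the 4, with the wildtype libraries between them. The log2 fold change was -0.02 ± 0.15 (SE), with an edgeR adjusted p of 0.995 and a 95% interval on the fold from 0.784 to 1.25. With upper-quartile scaling it was 0.0011, so Tns1 has no direction here. The log2 ratio was 0.18 in pair 1 and -0.24 in pair 2. Tns1 was the leading tensin: Tns3 measured 9.89 and 8.29 RPKM in the mutant and 6.43 and 8.21 RPKM in the wildtype libraries, and Tns2 (row name Tenc1) 7.77 and 6.80 RPKM in the mutant and 6.66 and 7.62 RPKM in the wildtype libraries.

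Around Tns1, 0 of 24 tested focal adhesion genes passed, with a median log2 fold change of 0.13. Nexn, an actin-binding protein of muscle, was at 0.01 ± 0.17 (SE) and Vcl, vinculin, which links integrins to actin, at 0.09 ± 0.14 (SE). At an unadjusted p under 0.05 there were 5 of the 24 higher and 0 lower, where 3.88% of all genes tested were higher at that p. The 5 are named here after their values were seen: the α-actinins Actn1 and Actn4, the adhesion proteins Zyx and Parvb, and the integrin subunit Itgb3, with log2 fold changes from 0.34 to 0.55. In Actn1 the log2 ratio was 0.98 in pair 1 and -0.036 in pair 2, and its groups overlapped. In the other 4 both mutant libraries lay above both wildtype libraries. Their log2 ratios in pairs 1 and 2 were 0.75 and 0.28 for Actn4, 0.52 and 0.13 for Zyx, 0.76 and 0.20 for Parvb, and 0.60 and 0.26 for Itgb3.

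Lmcd1 (chromosome 6, 112273758 to 112330425, plus strand) had 652 and 339 reads in mutant replicates 1 and 2, and 467 and 322 in wildtype replicates 1 and 2, or 28.7 and 23.9 CPM in the mutant and 24.9 and 20.3 CPM in the wildtype libraries. Each mutant library lay above the wildtype library of its own number, yet mutant replicate 2 lay below wildtype replicate 1. The log2 fold change was 0.22 ± 0.18 (SE), with an edgeR adjusted p of 0.967 and a 95% interval on the fold from 0.878 to 1.55. The log2 ratio was 0.20 in pair 1 and 0.23 in pair 2, which made Lmcd1 the tested member above 0 in both pairs. Gata6, the cardiac factor that Lmcd1 protein restrains, was at -0.05 ± 0.13 (SE) on the log2 fold change scale.

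**Figure D4:**
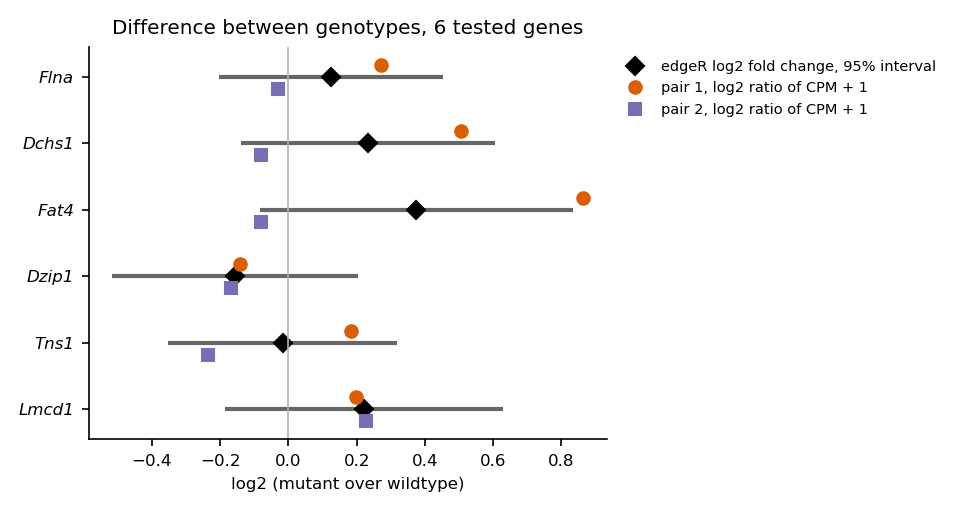
Log2 fold change, mutant over wildtype (horizontal axis), of the 6 tested genes from edgeR with its 95% interval (black), and the log2 ratio of CPM + 1 in pair 1 (orange circles) and pair 2 (purple squares). Every interval crosses 0; the pairs lie together in Dzip1 and Lmcd1 and far apart in Fat4, at 0.86 and -0.082.

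Glis1 (chromosome 4, 107434591 to 107635061, plus strand) was at the limit of detection, with 4 and 0 reads in mutant replicates 1 and 2, and 8 and 1 reads in wildtype replicates 1 and 2. A count of 0 allows up to 3 reads, or 0.213 CPM in mutant replicate 2, counting error only. It was left out of the test by the low count filter, no fold is given, and a difference between genotypes was not detectable at this depth. Glis2, its paralogue, was the main Glis gene of the tissue at 8.59 and 7.74 RPKM in the mutant and 7.51 and 7.45 RPKM in the wildtype libraries. In the list of Glis relatives and Lmcd1 partners 0 of 9 genes passed without the block and 1, Glis3, with it. The median log2 fold change was -0.05, and Csrp2, a LIM protein and the most abundant of them, was at -0.06 ± 0.12 (SE).

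Glis3, a zinc finger factor of the same family known from pancreas, thyroid and kidney, is named after its values were seen. It had 139 and 114 reads in mutant replicates 1 and 2, and 54 and 43 in wildtype replicates 1 and 2, or 6.12 and 8.05 CPM in the mutant and 2.88 and 2.71 CPM in the wildtype libraries. Both mutant libraries lay above both wildtype libraries. Its log2 difference between genotypes was 1.33 ± 0.27 (SE), a fold of 2.51, and edgeR put its adjusted p at 0.173 without the replicate block and at 0.0287 with it. With 1 library left out, its genotype assumed to vary like the other, the edgeR adjusted p was 0.00396 without mutant replicate 1, 0.0535 without mutant replicate 2, 0.588 without wildtype replicate 1 and 0.656 without wildtype replicate 2. Glis3 passed in 4 of 14 alternative settings, over which the adjusted p ran from 5.13e-04 to 0.656 and the log2 fold change from 1.13 to 1.52; DESeq2 gave an adjusted p of 0.107. Summed markers of some other cell types were also higher in both mutant libraries. The 8 hepatocyte markers summed to 11.8 and 19.1 CPM in the mutant and 7.99 and 8.02 CPM in the wildtype libraries. Of the 4 of them tested, 0 passed without the block, 1 by DESeq2 and 2 with the block, Afp and Alb. Without the block Afp was at a fold of 2.64 and Alb at a fold of 4.33. The other 2 tested went the other way, with log2 fold changes of -0.50 ± 0.38 (SE) for Ahsg and -0.08 ± 0.52 (SE) for Ttr. Serpina1a was at 0 in 3 libraries. The leukocyte sums given above were, like the hepatocyte sums, higher in both mutant libraries. The part of either in the Glis3 value was not tested. Per kilobase Glis3 stayed below Glis2, at 0.692 and 0.911 RPKM in the mutant and 0.325 and 0.307 RPKM in the wildtype libraries.

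Genes of heritable connective tissue disorders, in which mitral valve prolapse is common, gave 0 of 22 tested past the threshold and a median log2 fold change of 0.19. Col3a1, the chain of type III collagen, was at 0.10 ± 0.16 (SE) and Fbn2, fibrillin 2, at 0.19 ± 0.17 (SE). Within pairs 18 of the 22 were above 0 in pair 1 and 9 in pair 2. Over all 154 tested genes of the related pathways 0 passed, 1 with the replicate block, and 0 by DESeq2. At an unadjusted p under 0.05 there were 9, all higher, or 5.84%. Of all genes tested 5.78% had such a p in either direction and 3.88% were higher. Of the 154, 117 (76.0%) were above 0 in pair 1 and 67 (43.5%) in pair 2, beside 49.7% and 50.5% of all tested genes.

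**Figure D5:**
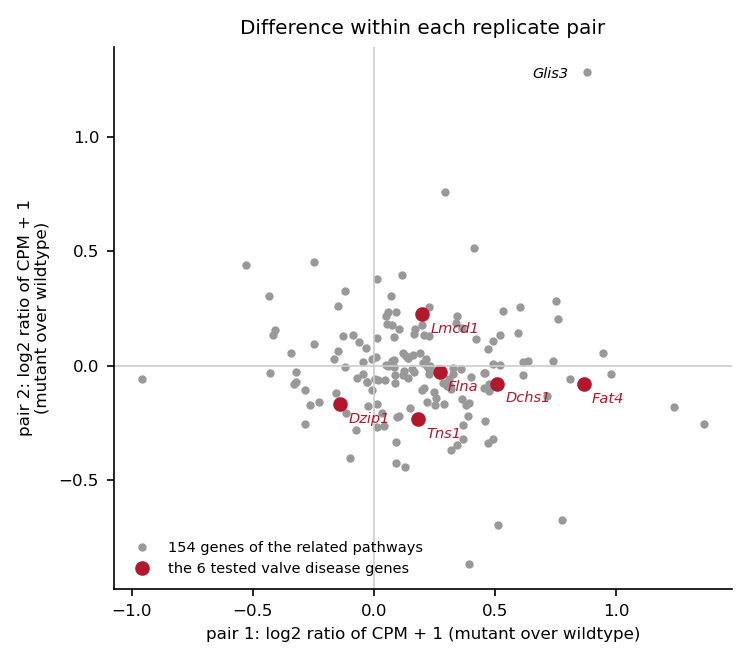
Log2 ratio of CPM + 1, mutant over wildtype, in pair 1 (horizontal axis) and pair 2 (vertical axis) for the 154 tested genes of the related pathways (grey) and the 6 tested valve disease genes (red). Fat4 and Dchs1 lie to the right at 0.86 and 0.51 in pair 1 but just below 0 in pair 2, and Glis3 stands apart at the top.

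Likeness of pattern was measured as the distance between log2 CPM profiles over the 4 libraries, each centred on its own mean, with the 154 pathway genes as candidates. Nearest to Fat4 were Itga5, the fibronectin receptor subunit, at 0.11 and Sufu, the Hedgehog inhibitor, at 0.15. Nearest to Dchs1 were Tln1, talin 1, at 0.064 and Fbn2 at 0.068. Flna lay nearest to Dzip1l (0.055) and Tead3 (0.058), Tns1 to Fblim1 (0.061) and Lats1 (0.070), Dzip1 to Col5a2 (0.11) and Tmem67 (0.11), and Lmcd1 to Zfpm2 (0.13) and Ptpn12 (0.13). Between members, Flna and Tns1 were closest at 0.16 and Fat4 and Dzip1 farthest at 0.77. These distances rest on 4 libraries and are a description.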

How the data were processed

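The authors deposited raw read counts per gene symbol for 4 total RNA libraries, with ribosomal RNA removed and ScriptSeq libraries made, per the labels' protocols. Alignment and counting tools named are TopHat2, Bowtie2, HTSeq and SAMtools, with edgeR and mm10, per the submitters' processing notes, which state no version. A second deposited table holds their own comparison, with log2 fold changes and log2 CPM, a likelihood ratio score, p-values and a fold ratio; its log2 fold changes run wildtype over mutant by comparison with the counts. Reads outside any feature (51.8% to 54.4% of all tallied reads), placed several times (16.1% to 17.0%) or ambiguous (0.187% to 0.210%) stayed out.

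The genotype test was run on all genes in R 4.3.3 by edgeR 4.0.16 (TMM scaling, filterByExpr, quasi-likelihood F test, Benjamini-Hochberg adjustment, threshold 0.05). Intervals use the SE from the F statistic of the fit without the replicate block, and 9.14 degrees of freedom. With the block the SE was 0.19 in place of 0.15 for Flna and 0.18 in place of 0.15 for Tns1. For Fat4 it was 0.20 in both fits. Pair ratios are log2 of CPM + 1, and profiles log2 CPM with a prior count of 2. DESeq2 1.42.0, limma-voom (limma 3.58.1), the replicate block, 2 scalings, 2 filters and each library left out were alternatives. The fits were tested on simulated counts. GENCODE M21 gave gene positions and exon unions (GRCm38, the assembly of mm10) and was matched for 22832 of 23342 row names; 1 septin row, written as a date, was read as Septin9.

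The series describes pairs of littermates, so equal replicate numbers were read as pairs; deviations of same-numbered libraries correlated at 0.144 across genes. The members, lists and rule for named genes (all 7 genes, then the 2 most abundant of each pathway list) were chosen with earlier results of these data known. No set test was made. Protein sequences were not used here, and 1 gene of the lists is not reported here.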

Additional observations from a re-analysis of the deposited data

How the results depend on the processing

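Over 14 alternative settings, 11 planned and 3 chosen after seeing the data, 78 of 84 values of the 6 tested genes kept their direction and their side of the threshold. Tns1 turned to 0.0011 with upper-quartile scaling. With no filter Fat4 had an unadjusted edgeR p of 0.0107 and an adjusted p of 0.351. Leaving out 1 library gave ranges of -0.0023 to 0.25 for Flna, -0.013 to 0.45 for Dchs1, 0.12 to 0.69 for Fat4, -0.25 to -0.065 for Dzip1, -0.20 to 0.14 for Tns1 and 0.080 to 0.38 for Lmcd1, and 0 to 1 members past the threshold, the 1 being Fat4 without mutant replicate 2. Tns1 was above 0 without mutant replicate 2 (0.14) or wildtype replicate 2 (0.024), and Flna and Dchs1 were below 0 without mutant replicate 1.

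The count of all genes past the threshold, 9, became 127 with the replicate block, 236 with no filter, 59 with DESeq2, 16 with the length trend removed, 76 with the length trend removed and the replicate block, and 97 with upper-quartile scaling and the replicate block; leaving out 1 library gave 3 (without wildtype replicate 2) to 443 (without mutant replicate 2). Of pathway genes 0 passed, but 1 with the replicate block, with or without upper-quartile scaling, 5 with no filter, and 0 to 8 with 1 library left out. The block changed no call of a member. Y-linked Ddx3y, Uty, Eif2s3y and Kdm5d were among the genes past the threshold with the block and not without it. The cause of these differences was not tested. With 2 libraries per genotype, the fold intervals allow up to 1.78 times for Fat4, and depth limits what can be said of Glis1.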
